A study of Homo sapiens with 4 samples.

Results

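The aryl hydrocarbon receptor pathway was followed here through 7 genes in MDA-MB-231 cells given the compound W23-1006, which the series title calls an inhibitor of the RNA demethylase ALKBH5. The genes are the receptor AHR, its partner ARNT, its repressor AHRR and the target genes CYP1A1, CYP1B1, TIPARP and ALDH1A3. They were picked by gene name, and all 7 were present among the 26336 genes of the deposited table. The line MDA-MB-231, of genotype WT, is established from a human triple-negative breast carcinoma and grows in culture as mesenchymal-like cells. Cells received DMSO, the vehicle, or W23-1006 for 24 h, with 2 poly-A selected RNA-seq libraries in each group. The dose is not given in the sources used here. The labels do not tell whether replicate libraries are from different cultures, and p-values therefore cover the spread between these libraries alone, possibly a technical one. The question is how transcript levels differ after exposure to the compound.

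The aryl hydrocarbon receptor is a transcription factor of the bHLH-PAS family that waits in the cytoplasm, bound to chaperones, until it meets a ligand such as a dioxin, a polycyclic aromatic hydrocarbon or a product of tryptophan breakdown. It then enters the nucleus, pairs with ARNT and binds a short DNA element, the xenobiotic response element. Its best known targets are the CYP1 monooxygenases, which oxidise the ligands, and the feedback inhibitors AHRR and TIPARP. Many breast cancer lines without estrogen receptor express the receptor.

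The core of the response element is GCGTG. It was searched on both strands, with overlapping matches counted, in RefSeq windows (GRCh38.p14) from 250 bases before to 50 bases after annotated starts. All members but CYP1B1 matched a window by symbol, with 9 windows for 6 genes. At least 1 GCGTG lay in 6 of the 9 windows, against 36.5% of all 35116 windows. The 6 windows came from 5 of the 6 genes, with ARNT as the exception, and had a GC content of 61% to 81.7%. The share over all windows was not matched for GC content. The longer form TTGCGTG was in none of the members' windows and in 1.16% of all windows. The 250 bases before a start are shown for the CYP1 enzyme CYP1A1 and for both feedback inhibitors. With CYP1B1, these are the genes whose transcript level reports on the receptor. For TIPARP and AHRR the window with the most matches is shown. The other TIPARP windows held 0 matches and the other AHRR window held 1. Capitals mark GCGTG or its reverse complement CACGC, and each run reads 5′ to 3′ on the strand of the gene.
CYP1A1 (minus strand, chr15:74725529-74725778): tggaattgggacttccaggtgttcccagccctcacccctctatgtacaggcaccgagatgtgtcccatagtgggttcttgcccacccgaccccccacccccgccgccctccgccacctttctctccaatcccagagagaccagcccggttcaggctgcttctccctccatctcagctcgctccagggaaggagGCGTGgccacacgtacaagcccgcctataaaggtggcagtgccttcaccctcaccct
TIPARP (plus strand, chr3:156674340-156674589): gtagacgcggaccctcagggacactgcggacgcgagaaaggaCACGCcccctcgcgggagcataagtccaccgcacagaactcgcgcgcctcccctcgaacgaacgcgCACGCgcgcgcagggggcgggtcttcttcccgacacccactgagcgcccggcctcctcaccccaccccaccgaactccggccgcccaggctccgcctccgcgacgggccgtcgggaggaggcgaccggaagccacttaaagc
AHRR (plus strand, chr5:322360-322609): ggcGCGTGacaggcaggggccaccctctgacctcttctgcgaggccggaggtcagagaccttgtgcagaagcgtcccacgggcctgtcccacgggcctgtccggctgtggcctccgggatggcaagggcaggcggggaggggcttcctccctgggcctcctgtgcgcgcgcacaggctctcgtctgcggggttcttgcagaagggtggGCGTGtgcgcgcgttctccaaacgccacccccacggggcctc
Counted from the start, the match of CYP1A1 begins at position -57, those of this TIPARP window at -208 and -142, and those of this AHRR window at -247 and -42. The match of AHR, not shown, begins at 38, after the start. A match describes the letters in the window and shows no binding.

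With each library's smallest non-zero value taken as 1 read, its depth over genes was between 15161460 and 16497283 reads. Of the line's markers, VIM, CD44, EGFR, AXL and CAV1 together stood at a summed normalised read count of 61807 to 64917 with DMSO and 63970 to 65893 with W23-1006. ESR1, the estrogen receptor gene, stood at 1.99 to 9.64 across the libraries, ERBB2 at 871 to 1052 and EPCAM at 45.4 to 85.8, while PGR and CDH1 were not among the listed genes. Of 9 markers of leukocytes, endothelium, fibroblasts and hepatocytes, 5 were listed, with a summed value of 173 to 197 with DMSO and 169 to 195 with W23-1006. PECAM1 and COL1A1 made up nearly all of it. ALKBH5, the gene of the protein the compound is said to inhibit, stood at 1434 and 1443 with DMSO and 1281 and 1242 with W23-1006. This transcript level does not check inhibition of the protein.

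All 7 genes were measured well above the detection floor. The lowest single value was 35.1, for CYP1A1 in a DMSO library, whereas a mean under 10 was counted as near the floor. By level per length (computed like RPKM, from the normalised read count, the table's gene length and the library total), TIPARP and AHR stood highest in DMSO libraries. TIPARP was at 11.1 ± 0.327 and AHR at 10.3 ± 0.197 (SD, n = 2 each), with every TIPARP library above every AHR library. CYP1B1 followed at 6.47 ± 1.09 and ARNT at 5.97 ± 0.0643, and the libraries of these neighbours overlapped. AHRR stood at 1.09 ± 0.0315, CYP1A1 at 0.771 ± 0.167 and ALDH1A3 at 0.411 ± 0.0164, with no overlap between neighbours. AHR lay above 68.8% of the 14608 protein-coding genes tested and ALDH1A3 above 20.4%. With W23-1006 the order was the same, at 12.8 ± 0.301 for TIPARP, 12.2 ± 0.136 for AHR, 8.68 ± 0.97 for CYP1B1, 5.87 ± 0.27 for ARNT, 1.17 ± 0.044 for AHRR, 0.829 ± 0.126 for CYP1A1 and 0.451 ± 0.0456 for ALDH1A3 (SD, n = 2 each). CYP1B1 and ARNT no longer overlapped there.

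**Figure D1:**
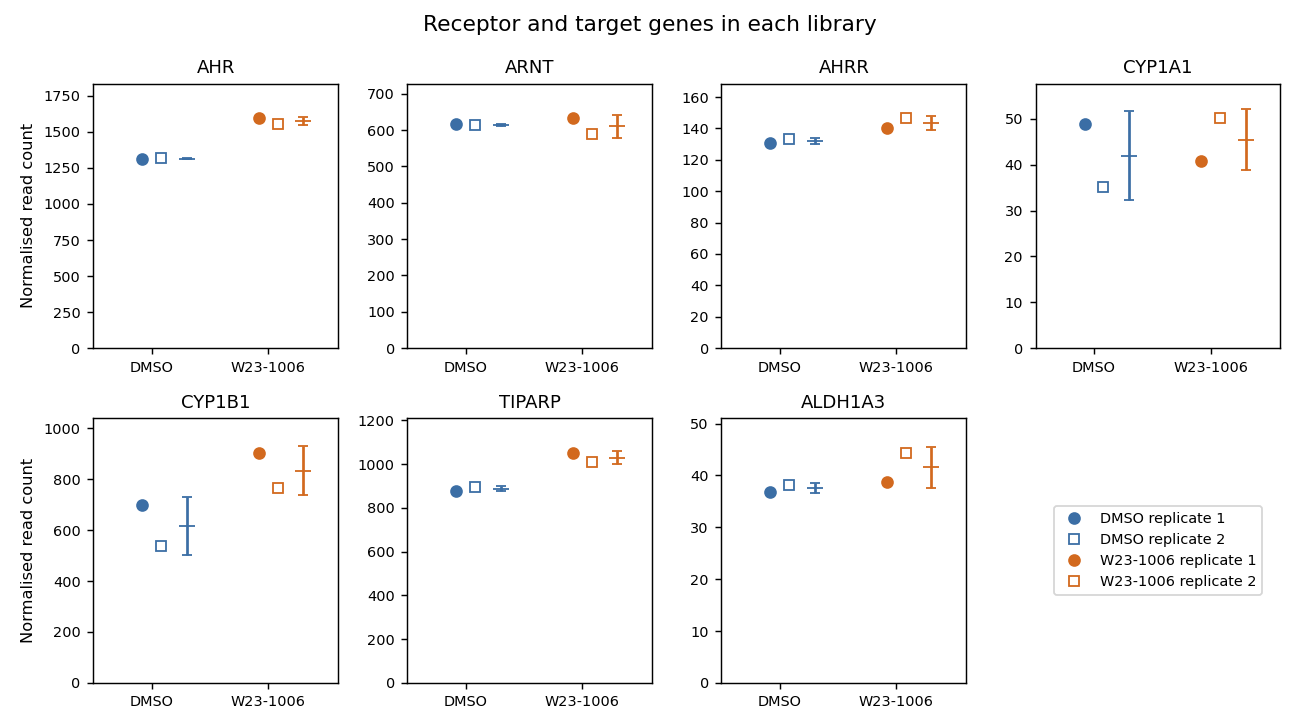
Normalised read count of the 7 genes in each of the 4 libraries; every panel has its own linear axis from 0. Filled circles are replicate 1 and open squares replicate 2 of DMSO (blue) and W23-1006 (orange), and bars are the mean ± SD (n = 2). The W23-1006 libraries lie above both DMSO libraries for 5 genes and overlap with them for ARNT and CYP1A1.

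The receptor and its target genes CYP1B1 and TIPARP stood higher with W23-1006 in both libraries, by 16% to 35.2% of the DMSO mean, and the best known target, CYP1A1, overlapped between the groups. None of the 7 genes passed the test over all genes (limma on log2(value + 1), two-sided, Benjamini-Hochberg adjusted p under 0.05), where 2.15% of the 22486 genes tested passed. At an unadjusted limma p under 0.05, 3 of the 7 passed (AHR, CYP1B1 and TIPARP), against 16.7% of all genes. The shares of 2.15% and 16.7% were not matched for level. They include genes with a mean under 10, whereas the lowest mean of the 7 was 39.5, for ALDH1A3. By the authors' deposited table, 2 of the 7 had an adjusted p under 0.05, AHR and CYP1B1, both higher, against 2.42% of its genes in either direction and 1.06% higher. In that table KYAT1, a kynurenine pathway gene, had a smaller p than TIPARP (authors' p 0.0328 and 0.0509) but a larger adjusted p. AHRR, CYP1A1 and ALDH1A3 likewise had a smaller p than ARNT (authors' p 0.658, 0.816, 0.771 and 0.938) but a larger adjusted p. An adjustment over all genes together cannot reverse the order of p. AHRR, CYP1A1 and ALDH1A3 were thus left out of the adjustment that ARNT was in. As shares of adjusted genes, 2.42% and 1.06% are too low, and the 2 of 7 counts members that were not adjusted. The result for AHR and CYP1B1 turned on the settings: with genes under a mean of 10 left out, both passed (limma adjusted p = 0.0203 and 0.0139). The same filter raised the calls over all genes from 484 to 1265, so the passing is not particular to these genes. Both libraries with W23-1006 lay above both DMSO libraries for 5 of the 7 genes, against 22.1% of all genes, and below them for 0, against 25% of all genes. The median log2 fold change of the 7 was 0.14, against -0.01 over all genes tested. An exact permutation test of a single gene cannot go below a two-sided p of 0.333 with 2 libraries in each group, and none was run.

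AHR encodes the receptor itself. Its normalised read count was 1310 and 1318 with DMSO and 1596 and 1558 with W23-1006. The groups did not overlap, and the distance between them was far wider than that within them. The distance within DMSO was itself smaller than counting error. Taken as reads, the 95% exact Poisson interval of DMSO replicate 1 ran from 1241 to 1383. The means were 1314 ± 5.17 and 1577 ± 26.5 (SD, n = 2 each), with a log2 fold change of 0.26 (SE 0.07, 95% interval 0.12 to 0.41; limma adjusted p = 0.057). The authors' deposited table gave 0.26 with an adjusted p of 0.0478, so the gene lies close to the threshold on either side. More AHR transcripts per cell and more cells expressing the gene cannot be told apart in bulk RNA.

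AHR has an AT-rich transcript, and fold changes in these libraries moved with GC content. The GC content of its longest transcript is 38.2%. The median log2 fold change of the 960 well-expressed genes (mean log2 value from 5 up) within 1 percentage point of it was 0.15. After each library's trend with GC content was removed, AHR stood at a log2 fold change of 0.12 (SE 0.07, 95% interval -0.02 to 0.26; limma adjusted p = 0.715). The part of GC content in the difference was not tested beyond this.

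In GRCh38 the table places AHR (ENSG00000106546) at bases 16916359 to 17346152 of chromosome 7, on the plus strand. The span overlaps antisense, pseudogene and miscellaneous RNA annotations, and AC019117.2, annotated as protein-coding on the same strand. Of these only AC073332.1 and BRWD1P3 were listed, at 0 to 6.96 reads on the normalised scale. How reads in the overlap with AC019117.2 were counted is not stated in the labels. The protein-coding genes with a mean of at least 100 whose pattern over the 4 libraries came closest to that of AHR were PIK3CA, a catalytic subunit of PI3-kinase, RAD17, a DNA damage checkpoint gene, and AGTPBP1, a carboxypeptidase gene. Their root mean square distances in log2 deviation were 0.0022, 0.0080 and 0.0091. Of 10136 genes compared, 464 lay within 0.05 of AHR, so many genes share this pattern.

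ARNT encodes the partner that both the receptor and the hypoxia-inducible factors need to bind DNA. It stood at 617 and 613 with DMSO and at 633 and 588 with W23-1006. Both DMSO values lay between those with the compound. The means were 615 ± 2.75 and 611 ± 31.6 (SD, n = 2 each), with a log2 fold change of -0.01 (SE 0.09, 95% interval -0.20 to 0.18; limma adjusted p = 0.969). The ratio of AHR to ARNT in level per length was 1.71 and 1.73 with DMSO and 2.03 and 2.14 with W23-1006. The log2 change of the ratio was 0.27 without and 0.15 with the GC correction. ARNT (ENSG00000143437) occupies bases 150809705 to 150876768 of chromosome 1, on the minus strand.

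AHRR encodes a receptor-like repressor that competes with AHR for ARNT and is itself induced by the receptor. It stood at 131 and 133 with DMSO and at 140 and 147 with W23-1006. The groups did not overlap, yet the counting intervals of single libraries did: taken as reads, the 95% exact Poisson interval ran from 109 to 155 in DMSO replicate 1 and from 124 to 172 in replicate 2 with W23-1006 (counting error only). The log2 fold change was 0.12 (SE 0.16, 95% interval -0.23 to 0.47; limma adjusted p = 0.772). With the GC correction it was 0.27 (SE 0.16, 95% interval -0.07 to 0.62; limma adjusted p = 0.73). The transcript is GC-rich, at 57.4%, and the median log2 fold change of the 726 well-expressed genes of like GC content was -0.15. AHRR as a percentage of AHR, in level per length, was 10.5% and 10.6% with DMSO and 9.24% and 9.9% with W23-1006. The log2 change of this ratio was -0.14, and it turned to 0.15 with the GC correction, so its direction rests on that setting.

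In the table, AHRR (ENSG00000063438) covers bases 304176 to 438291 of chromosome 5, on the plus strand. Its annotated span overlaps that of PDCD6, a calcium-binding protein gene on the same strand, which stood at 1328 and 1329 with DMSO and 1142 and 1157 with W23-1006. PDCD6 had several times more reads. On the log2 scale its difference was -0.21 (limma adjusted p = 0.132), and -0.11 with the GC correction. How reads in the overlap were counted is not stated in the labels.

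CYP1A1 encodes the monooxygenase most used as a readout of receptor activity. It stood at 48.8 and 35.1 with DMSO and at 40.7 and 50.1 with W23-1006. The groups interleaved, and the highest and lowest DMSO values lay further apart than the group means. The means were 42 ± 9.72 and 45.4 ± 6.65 (SD, n = 2 each), with a log2 fold change of 0.12 (SE 0.31, 95% interval -0.53 to 0.78; limma adjusted p = 0.884), or 0.21 with the GC correction. At 34 to 52 reads a library, the 95% exact Poisson intervals of all 4 libraries overlapped, from 24.3 at the lowest bound to 65.8 at the highest. A change was not detectable at this depth, and the interval leaves out an induction of 2-fold, which is 1 on the log2 scale. CYP1A1 (ENSG00000140465) occupies bases 74719542 to 74725610 of chromosome 15, on the minus strand, and no other annotated gene overlaps it.

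CYP1B1 encodes the other CYP1 monooxygenase of the breast, which also hydroxylates estradiol. Its normalised read count was 697 and 537 with DMSO and 903 and 765 with W23-1006. The lower library with the compound stood above the higher DMSO library by less than the DMSO libraries differed from each other. The means were 617 ± 113 and 834 ± 97.9 (SD, n = 2 each), 35.2% higher with the compound, the largest of the 7 differences in log2 fold change at 0.44 (SE 0.12, 95% interval 0.19 to 0.69; limma adjusted p = 0.0611). The authors' deposited table gave 0.43 with an adjusted p of 0.0456.

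The difference of CYP1B1 shrank less than that of AHR with the GC correction, to a log2 fold change of 0.38 (SE 0.11, 95% interval 0.14 to 0.61). It did not pass then either (limma adjusted p = 0.384). Its transcript has a GC content of 44.1%, and the median log2 fold change of 1071 well-expressed genes of like GC content was 0.07. The size rests on single libraries: without DMSO replicate 1 it was 0.63, and without DMSO replicate 2 it was 0.25. CYP1B1 (ENSG00000138061) occupies bases 38066973 to 38109902 of chromosome 2, on the minus strand. Among overlapping annotations, the antisense RNA CYP1B1-AS1 stood at 7.71 to 16.9 and RMDN2, on the other strand, at 85.4 to 104.

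TIPARP encodes an ADP-ribosyltransferase, also known as PARP7, that modifies the receptor and limits its activity. It stood at 879 and 897 with DMSO and at 1051 and 1009 with W23-1006. As for AHR, the groups lay apart by more than either group's spread. Taken as reads, the 95% exact Poisson intervals of replicate 2 overlapped, at 838 to 958 with DMSO and 948 to 1072 with W23-1006. The means were 888 ± 12.6 and 1030 ± 30.1 (SD, n = 2 each), with a log2 fold change of 0.21 (SE 0.08, 95% interval 0.05 to 0.38) that did not pass (limma adjusted p = 0.16). The authors' deposited table gave an adjusted p of 0.207. With the GC correction the log2 fold change was 0.13 (SE 0.08, 95% interval -0.03 to 0.29), the transcript having a GC content of 42.8% and genes of like content a median of 0.10. TIPARP (ENSG00000163659) occupies bases 156673235 to 156706770 of chromosome 3, on the plus strand, and the divergent RNA TIPARP-AS1 stood at 0 to 3.86.

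ALDH1A3 encodes a retinaldehyde dehydrogenase that makes retinoic acid and marks stem-like cells in some breast cancers. It stood at 36.9 and 38.2 with DMSO and at 38.7 and 44.4 with W23-1006. The groups were separated by less than 1 read on the normalised scale. The log2 fold change was 0.14 (SE 0.30, 95% interval -0.51 to 0.79; limma adjusted p = 0.865), and at 37 to 46 reads a library no change was detectable. ALDH1A3 (ENSG00000184254) occupies bases 100877714 to 100916626 of chromosome 15, on the plus strand. The antisense gene AC015712.2 overlaps it and stood at 16.9 to 30.9, a level not far below its own. The strand setting of the counting is not given, so these reads cannot be told apart with certainty.

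**Figure D2:**
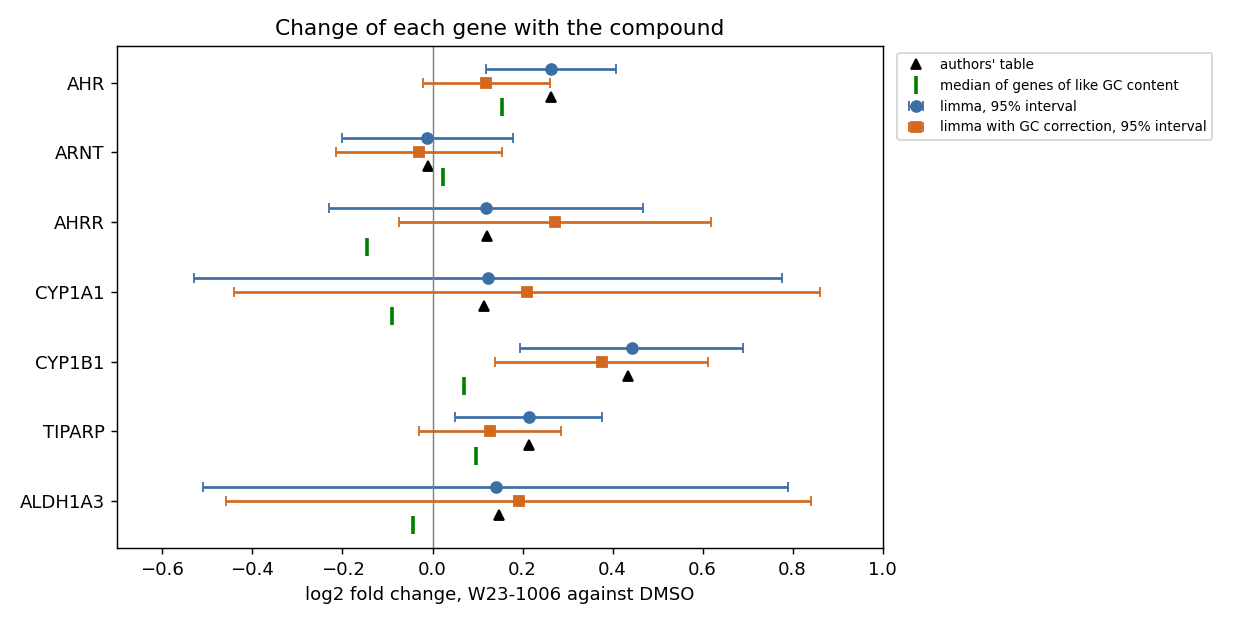
log2 fold change of W23-1006 against DMSO for the 7 genes, from limma (blue circles), from limma with the GC correction (orange squares), both with 95% intervals, and from the authors' deposited table (black triangles); green ticks are the median of well-expressed genes of like GC content. The AHR interval runs from 0.12 to 0.41 before the correction and from -0.02 to 0.26 after it, while that of CYP1B1 stays above 0.

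Side by side, the GC correction moved the members toward or away from 0 by their GC content. AHR and TIPARP, at 38.2% and 42.8%, went down to 0.12 and 0.13, and AHRR, at 57.4%, went up to 0.27. The median of the 7 was 0.19 with the correction, against 0.00347 over all genes. None of the 7 passed with it, where 0.0934% of all genes did, and at an unadjusted limma p under 0.05 CYP1B1 alone of the 7 passed. In sign, 6 of the 7 were positive before and after the correction, with ARNT negative both times.

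**Figure D3:**
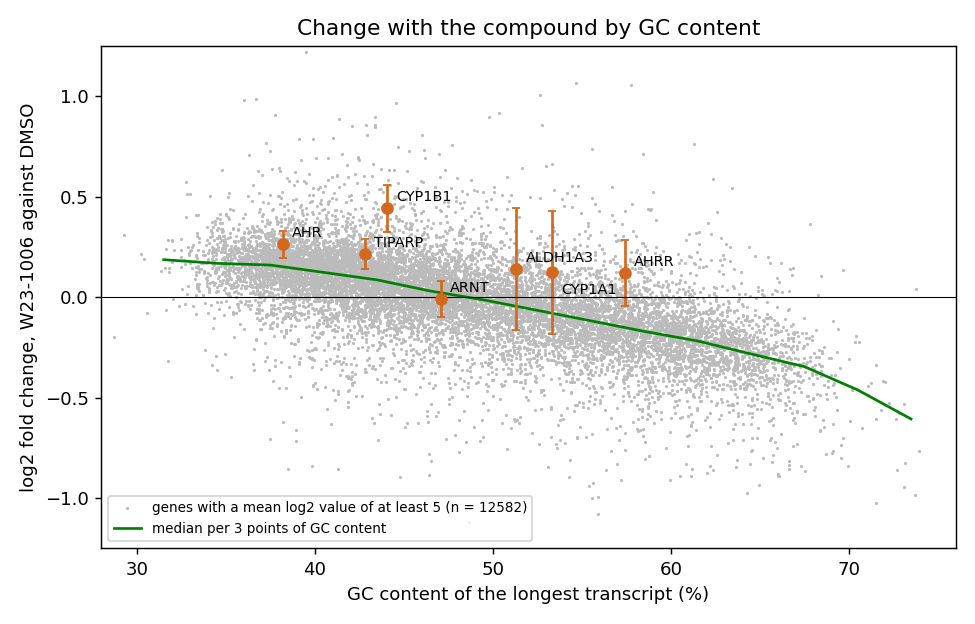
log2 fold change of W23-1006 against DMSO (limma) by GC content of the longest transcript for the 12582 better-expressed genes, those with a mean log2 value from 5 up (grey; 8 genes lie outside the axes), with the median per 3 percentage points (green) and the 7 genes ± SE (orange). The median falls from above 0 at low GC content to below 0 at high GC content, and all members but ARNT lie above it.

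Around these genes, 8 lists of 111 distinct symbols were described, 93 of them listed in the table and 90 tested. Of the 90, 2 rose and 2 fell (limma adjusted p under 0.05), against 0.694% and 1.46% of all genes, with a median log2 fold change of -0.01 against -0.01. By the authors' deposited table, 7 of the 93 had an adjusted p under 0.05, against 2.42% of all its genes. They were AHR, CYP1B1, CLOCK, HIF1A, EREG, KYNU and POR, of which POR was lower. As a share of adjusted genes 2.42% is too low, since genes left out of the adjustment are counted in it. The 93 hold such genes too, KYAT1 among them, and the adjusted genes were not counted. The 7 of 93 is thus not read as more than the share over all genes. Without any one of the 4 libraries no gene of the whole table was called, so these fits do not weigh the 4 limma calls. Their log2 fold changes then ran from 0.45 to 0.51 for KYNU, 0.19 to 0.27 for EREG, -0.40 to -0.35 for PARP10 and -0.37 to -0.28 for POR. The lists were drawn up with earlier results of these data known, and no list was tested as a set.

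Receptor complex and coactivator genes, 12 of them, included 0 that passed (limma). At an unadjusted limma p under 0.05, 3 of the 12 passed, against 16.7% of all genes. Their median log2 fold change over the list was 0.01. After AHR the smallest p-values belonged to NRIP1, a corepressor of nuclear receptors, and NCOA3, a coactivator. NRIP1 stood at 1076 ± 149 with DMSO and 1296 ± 108 with W23-1006 (SD, n = 2 each), with a log2 fold change of 0.27 (SE 0.09) at a limma adjusted p of 0.141. NCOA3 stood at a log2 fold change of 0.15 (SE 0.07) and HSP90AA1, a chaperone of the unliganded receptor, at 0.09 (SE 0.04). With the GC correction NRIP1 stood at 0.14 (limma adjusted p = 0.74), NCOA3 at 0.06 and HSP90AA1 at 0.04.

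Other bHLH-PAS factors share the receptor's fold and, in part, ARNT. Of 11 tested 0 passed (limma), and 5 had an unadjusted limma p under 0.05, against 16.7% of all genes. The median log2 fold change of the 11 was -0.05. CLOCK, of the circadian oscillator, stood at 1429 ± 60.8 and 1715 ± 61.3 (SD, n = 2 each), with a log2 fold change of 0.26 at a limma adjusted p of 0.0606, and HIF1A, of the hypoxia response, at 0.18 (limma adjusted p = 0.0759). The authors' deposited table had both past the threshold, at adjusted p-values of 0.0467 and 0.0154. With the GC correction CLOCK stood at 0.11 and HIF1A at 0.02. EPAS1, the HIF-2 alpha gene, stood at 0.22 and, with the correction, at 0.29, and NPAS2, a relative of CLOCK, at -0.22 and -0.21.

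Among genes reported to respond to the receptor, 15 of 19 were listed and tested. Of the 15, 1 rose and 0 fell, against 0.694% and 1.46% of all genes. The median log2 fold change was 0.12, and 9 had both libraries with W23-1006 above both DMSO libraries, against 22.1% of all genes. Without XDH and SERPINB2, which were at or near the floor, 7 of 13 did, and the median stayed at 0.12. The list includes CYP1A1, CYP1B1, AHRR and TIPARP. EREG, an EGF receptor ligand, rose from 4431 and 4689 to 5354 and 5357 (log2 fold change 0.23, SE 0.05, limma adjusted p = 0.0427). With the GC correction EREG, at a GC content of 36.1%, stood at 0.07 (limma adjusted p = 0.788). HES1, a Notch target, was lower in both libraries with the compound, at 440 ± 20.9 and 331 ± 15.3 (SD, n = 2 each). Its log2 fold change was -0.41 at a limma adjusted p of 0.0583, and -0.38 with the GC correction (limma adjusted p = 0.327). NQO1, a quinone reductase that answers to both the receptor and NRF2, stood at 0.14 (SE 0.05). XDH and SERPINB2 had no library above 7.95 and get no fold change. CYP1A2, the CYP1 enzyme of liver, was not among the listed genes.

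The receptor's tryptophan-derived ligands are made and removed by enzymes of the kynurenine pathway. TDO2, which starts that pathway, stood at 24.9 and 9.29 with DMSO and 13.9 and 7.71 with W23-1006, and the other starting enzymes, IDO1 and IDO2, were not among the listed genes. Of 8 genes tested, KYNU, which cleaves kynurenine, rose and 0 fell, against 0.694% and 1.46% of all genes. The KYNU mean was 2162 ± 19.8 with DMSO and 3018 ± 85.6 with W23-1006 (SD, n = 2 each), at a limma adjusted p of 0.00346, and it was the 1 gene of all 8 lists that passed with the GC correction (0.32, limma adjusted p = 0.0314). The median log2 fold change of the list was -0.14.

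ADP-ribosyltransferases related to TIPARP gave 0 higher and 1 lower among 11 tested, against 0.694% and 1.46% of all genes. Their median log2 fold change was 0.00082. PARP10, a mono-ADP-ribosyltransferase, fell by 0.38 on the log2 scale (SE 0.09, limma adjusted p = 0.0467), with means of 618 ± 0.189 and 476 ± 11.4 (SD, n = 2 each). At a GC content of 66.9% it stood at -0.02 with the GC correction. PARP14, another mono-ADP-ribosyltransferase, stood at 0.27 (limma adjusted p = 0.0611), beside 0.21 for TIPARP, and at 0.18 with the GC correction.

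Aldehyde dehydrogenases other than ALDH1A3 gave 0 calls, as did the 16 of the list tested (limma). At an unadjusted limma p under 0.05, 2 of the 16 passed (ALDH16A1 and ALDH9A1), against 16.7% of all genes. ALDH16A1 stood at -0.39 (limma adjusted p = 0.0517) and ALDH9A1 at 0.22 (limma adjusted p = 0.122). With the GC correction they stood at -0.14 (limma adjusted p = 0.764) and 0.20. Of the other retinaldehyde dehydrogenases, ALDH1A1 was not among the listed genes and ALDH1A2 stood at 0 to 0.997. ALDH1A3 was thus the best detected of the 3 retinaldehyde dehydrogenase genes, at a low level of its own. In the retinoic acid pathway 0 of 14 passed, and 0 had an unadjusted limma p under 0.05, against 16.7% of all genes. The median log2 fold change was -0.08 and turned to 0.07 with the GC correction. RDH10, which makes retinaldehyde, stood at 0.19 and CYP26B1, which breaks retinoic acid down, at -0.16. With the correction RDH10 stood at 0.19 and CYP26B1 at -0.02.

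POR passes electrons to the CYP1 enzymes and the other microsomal P450s. It fell from 1366 and 1337 to 1117 and 1047 (log2 fold change -0.32, SE 0.07, limma adjusted p = 0.0378). POR was the 1 gene of 5 electron donors that passed, against 2.15% of all genes. With a GC content of 61.3% it stood at -0.10 with the GC correction (limma adjusted p = 0.778). The authors' deposited table gave it an adjusted p of 0.024.

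**Figure D4:**
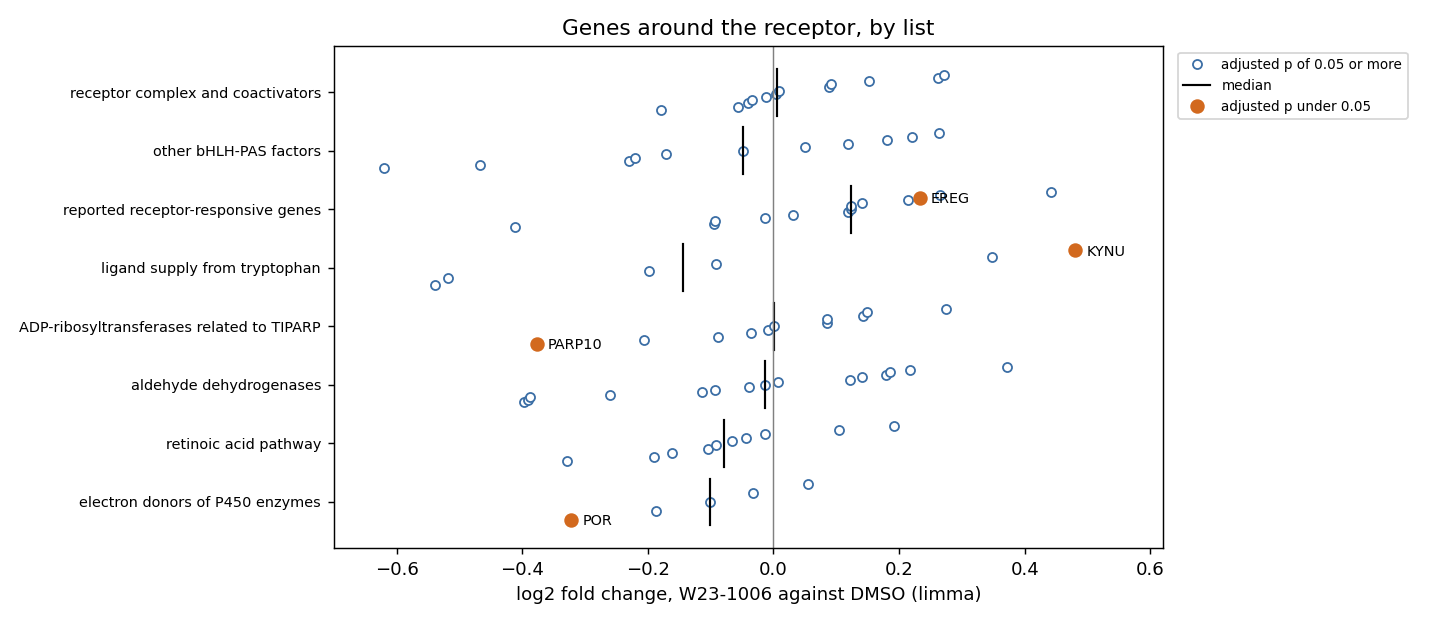
log2 fold change of W23-1006 against DMSO (limma) for the genes of the 8 lists with a mean value of at least 10, 1 circle per gene, with the median of each list as a black line. Filled orange circles are the 4 genes with an adjusted p under 0.05, EREG and KYNU higher and PARP10 and POR lower.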

How the data were processed

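Poly-A selected RNA was sequenced in 4 libraries. The build GRCh38 and the tools HISAT2 2.0.5, featureCounts 1.5.0-p3, DESeq2 1.20.0, fastp and CASAVA are named, per the submitters' processing notes, without their roles. The deposited per-library values are a signal, gene read counts divided by a factor for each library: all of them (100%) came out as whole multiples of their column's smallest value, to within 0.001. Median-of-ratios scaling left them as they were. Columns named treatment and control were taken as W23-1006 and DMSO. The table also holds, per the file headers, a log2 fold change, a p-value and an adjusted p-value by the authors; some adjusted p-values are listed as 1.

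limma 3.58.1 (R 4.3.3) was fitted to log2(value + 1) for genes with a mean of at least 1, with a mean-variance trend and treatment as the only term. This scale understates changes of low genes. A count model was not used. The choice of limma was made because earlier results of these data describe the values as scaled reads, not counts. Values taken as reads entered only the depths and the counting intervals. The GC correction removed each library's loess trend (span 0.3) of log2 deviation on transcript GC content (GENCODE 29), fitted to the better-expressed genes (mean log2 value from 5 up). Alternatives were pseudocounts, filters, scalings, no variance trend, a replicate block and removal of each library. Removal leaves a group with 1 library, which then takes its variance from the other group. Genes are named by rule: the members, ALKBH5, list genes past the threshold or with the smallest p, and the 3 nearest to AHR. NQO1, PARP14, TDO2, KYAT1, PDCD6, the overlapping genes and the genes near the floor were named after their values were seen. Members and lists were chosen with earlier results of these data known.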

Additional observations from a re-analysis of the deposited data

How the results depend on the processing

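The count of members past the threshold was 0 in the fit as reported. It was 2 (AHR and CYP1B1) with a pseudocount of 5, with a filter at a mean of 10 and with the replicate block, and 1 (CYP1B1) with equal totals and with the replicate block and GC content correction together. It was 0 under the other alternatives. AHR stood at 0.26 in those fits (limma adjusted p = 0.0406, 0.0203 and 0.00777), and CYP1B1 at 0.44 (0.036, 0.0139 and 0.000124), at 0.43 with equal totals (0.0406) and at 0.38 with the replicate block and GC content correction (0.00417). The replicate numbers are not said to pair the libraries. The deviations of same-numbered libraries from their group mean correlated at -0.0054 over the 22486 genes tested. Over the 10602 genes with a mean of at least 100 they correlated at 0.054, so the block rests on a number alone.

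Genes called over all genes went from 484 to 0 with a pseudocount of 0.1, no filter or no variance trend, to 770 with a pseudocount of 5, 1265 with the filter at 10, 826 with equal totals, 21 with the GC correction, 1731 with the replicate block and 200 with the replicate block and GC correction. For the same settings the 4 calls in the lists became 0, 11, 14, 7, 1 and 16, and 3 with block and GC correction. The pseudocount of 5 and the replicate block kept the same 22486 genes. The filter at 10 left out the 11333 of 26336 listed genes with a mean under 10. Every setting in which AHR passed also raised the calls over all genes, so its passing is not particular to it. The same holds for CYP1B1, except with block and GC correction together, where calls over all genes fell to 200. Without any one library all counts were 0. Log2 fold changes then ran from 0.25 to 0.28 for AHR, -0.064 to 0.042 for ARNT, 0.087 to 0.15 for AHRR, -0.11 to 0.36 for CYP1A1, 0.25 to 0.63 for CYP1B1, 0.18 to 0.24 for TIPARP and 0.045 to 0.24 for ALDH1A3. ARNT changed sign in 1 of these and CYP1A1 in 2. The cause was not tested. Depth limits CYP1A1 and ALDH1A3.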
